A study of Homo sapiens with 12 samples.

Results

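The TAM receptors are a family of receptor tyrosine kinases, TYRO3, AXL and MERTK, and their protein ligands are GAS6 and PROS1 (protein S). These 5 genes were followed, of 60668 genes in the count table, by their gene symbols. They were chosen by measured values, the lower level of TYRO3 in H1299 cells with HDAC2 knockdown, so all 5 genes are described without a test in that comparison, and TYRO3 is also described without a test between the lines. RNA-seq was done in 12 libraries, 3 in each of 4 groups: PANC-1 cells, a pancreatic adenocarcinoma line, with an shRNA against FOSL1 or a scrambled shRNA, and H1299 cells, a lung adenocarcinoma line, with an shRNA against HDAC2 or a scrambled shRNA. All cells, scramble included, had been transduced with lentivirus and selected with puromycin, each knockdown rests on 1 shRNA, and the scramble cells are labelled WT. FOSL1 is a subunit of the AP-1 transcription factor, and HDAC2 is a class I histone deacetylase. The labels call the libraries biological replicates without saying whether cells were transduced separately, so p values measure the spread between these libraries. All 5 genes passed the filter on low counts in each comparison.

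A TAM receptor binds its ligand through its extracellular domains, and the bound ligand holds phosphatidylserine exposed on a dying cell or a vesicle through its own Gla domain. The Gla domain needs carboxylation that depends on vitamin K. In macrophages MERTK is known for the uptake of dying cells and TAM signalling restrains innate immune responses, and in carcinoma cells AXL is known as a receptor linked to invasion and drug resistance.

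The receptors lie on different chromosomes (GRCh38, GENCODE 44). TYRO3 (ENSG00000092445) lies at chr15:41557675-41583589, AXL (ENSG00000167601) at chr19:41219223-41261766 and MERTK (ENSG00000153208) at chr2:111898607-112029561, all on the plus strand. GAS6 (ENSG00000183087) lies at chr13:113820549-113864076 and PROS1 (ENSG00000184500) at chr3:93873051-93980003, both on the minus strand. The promoters of the receptors are shown because FOSL1, targeted in PANC-1 cells, works as part of AP-1, whose consensus is TGACTCA or TGAGTCA. The letters searched for, TGANTCA, are looser and allow any base in the middle. Each window covers 250 bases before and 50 after the first RefSeq start site, 5′ to 3′ on the gene's strand (GRCh38.p14). Capitals mark the looser AP-1 letters TGANTCA, the GC box GGGCGG and the TEAD site CATTCC on either strand.
TYRO3, chr15:41558962-41559261: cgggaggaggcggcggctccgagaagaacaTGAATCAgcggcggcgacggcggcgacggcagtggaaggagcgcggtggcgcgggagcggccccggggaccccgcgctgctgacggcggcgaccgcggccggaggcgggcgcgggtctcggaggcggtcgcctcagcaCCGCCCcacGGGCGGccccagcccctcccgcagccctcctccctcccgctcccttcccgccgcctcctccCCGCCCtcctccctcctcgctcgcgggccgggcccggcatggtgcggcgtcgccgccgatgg
AXL, chr19:41218973-41219272: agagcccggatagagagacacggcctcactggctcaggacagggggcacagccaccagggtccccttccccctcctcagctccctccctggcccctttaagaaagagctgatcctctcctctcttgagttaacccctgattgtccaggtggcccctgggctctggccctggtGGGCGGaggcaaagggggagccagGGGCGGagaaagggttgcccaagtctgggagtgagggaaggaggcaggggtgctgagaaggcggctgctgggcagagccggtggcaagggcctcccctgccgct
MERTK, chr2:111898357-111898656: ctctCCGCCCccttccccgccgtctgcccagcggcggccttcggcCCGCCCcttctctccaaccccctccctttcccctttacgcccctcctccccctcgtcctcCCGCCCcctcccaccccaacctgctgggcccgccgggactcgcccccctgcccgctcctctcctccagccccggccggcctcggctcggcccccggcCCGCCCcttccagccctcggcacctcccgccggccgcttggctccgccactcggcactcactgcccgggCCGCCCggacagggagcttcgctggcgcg

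TYRO3 held the letters TGANTCA 1 time, at position -220 from its start site. They were in none of the other windows of the 5 genes, which have 7 RefSeq start sites in all. The TYRO3 match reads TGAATCA, with A in the middle, so none of these windows held the AP-1 consensus. Of the 35116 windows of all genes, 7.71% held the letters TGANTCA, and the share with the consensus was not counted. GC boxes were found 3 times in the TYRO3 window, 2 times in that of AXL and 5 times in that of MERTK, and 45.0% of all windows held at least 1. The TEAD letters, in 14.0% of all windows, were found only at the other AXL start site. Of the 3 windows shown, that of TYRO3 alone held the CRE core TGACG (24.6% of all windows), and none of the 7 held the E-box CACGTG (7.26%). The GC content was 80.3% for TYRO3, 66.0% for AXL and 78.3% for MERTK, against a median of 58.7% over all windows. These matches are letters in a window and do not show that a factor binds there.

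The FOSL1 shRNA target is shown because a stretch of it can match other transcripts. If the guide strand pairs with the whole target, capitals mark the letters opposite its bases 2 to 8.
FOSL1 shRNA target: gagctgcagtgGATGGTAc

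The whole target of 19 bases matched transcripts of FOSL1 and its pseudogene FOSL1P1 and no others. The seed letters occurred in the 3′ UTR of 6.51% of 19911 protein-coding transcripts, 1 per gene, and 0 times in those of TYRO3, AXL, MERTK, GAS6 and PROS1. The sequence of the HDAC2 shRNA is not given in the sources used here.

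Total counts were 16065723 to 19173421 per library. FOSL1 had 177.5, 166.9 and 165.8 CPM (counts relative to the library size, scaled by TMM over the 12 libraries) in PANC-1 FOSL1 knockdown libraries, against 218.9, 216.5 and 241.8 CPM in scramble libraries. It fell by 0.43 on the log2 scale (SE 0.062, adjusted p = 2.88e-06, edgeR quasi-likelihood test). HDAC2 had 77.2, 68.4 and 78.3 CPM in H1299 HDAC2 knockdown libraries, against 171.0, 177.5 and 186.6 CPM in scramble libraries, and fell by 1.26 on the log2 scale (SE 0.065, adjusted p = 5.4e-15, edgeR). Scramble replicate 1 stood apart in both lines: the chi-square per degree of freedom against its 2 partners was 7.82 and 10.6 in PANC-1 and 7.62 and 6.79 in H1299, and 2.38 to 3.86 between all other replicates. Mitochondrially encoded genes took 12.6 to 13.3% of counts in PANC-1 FOSL1 knockdown and 7.0 to 7.3% in PANC-1 scramble libraries, and 11.3 to 12.5% in H1299 HDAC2 knockdown and 11.8 to 13% in H1299 scramble libraries. With mitochondrially encoded genes and the 20 most abundant ones removed, 3 members were called in PANC-1, the number found with them.

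The keratins KRT8 and KRT18 were abundant in both lines, and EPCAM, KRT19 and CDH1 had at most 15 counts in any H1299 library. Of 5 lung epithelial markers in H1299, NKX2-1 had up to 53 counts and NAPSA up to 21 in a library, and SFTPB, SFTPC and SCGB1A1 had at most 4. Among the ductal markers in PANC-1, KRT19 (373.4 CPM in FOSL1 knockdown and 315.9 CPM in scramble libraries) and SOX9 (248.0 CPM in FOSL1 knockdown and 251.8 CPM in scramble libraries) were abundant, PDX1 had up to 47 counts in a library and CFTR at most 7. Macrophages are cells in which MERTK is known for the uptake of dying cells. Of 9 macrophage markers, PTPRC, AIF1, TYROBP and C1QA had at most 3 counts in any library. Only CD14 and ITGAM passed the filter in PANC-1, and the summed level of all 9 was 2.59 to 4.40 CPM in FOSL1 knockdown and 5.00 to 5.68 CPM in scramble libraries. In H1299, ITGAM made up most of a sum of 9.07 to 9.42 CPM in HDAC2 knockdown and 11.9 to 12.4 CPM in scramble libraries. The 7 fibroblast markers summed to 104.8 to 119.0 CPM in PANC-1 FOSL1 knockdown and 268.5 to 329.9 CPM in PANC-1 scramble libraries, mostly from the collagen gene COL1A1, and DCN and LUM had at most 3 counts there. In H1299 that sum was 4.24 to 4.39 CPM in HDAC2 knockdown and 5.91 to 7.22 CPM in scramble libraries. The 8 epithelial markers summed to 1628 to 1668 CPM in PANC-1 FOSL1 knockdown and 2160 to 2751 CPM in scramble libraries, and to 354.2 to 376.4 CPM in H1299 HDAC2 knockdown and 558.1 to 621.6 CPM in scramble libraries. Some markers went against these sums. In PANC-1, 6 epithelial markers were called lower, while MUC1 rose by 0.35 and KRT19 by 0.22. Of the fibroblast markers there, 3 were lower and COL3A1 rose by 0.37. In H1299, 4 epithelial markers were lower and CLDN4 rose by 0.48. Over all tested genes 27.1% were lower and 23.8% higher in PANC-1, and 12.1% and 10.3% in H1299. Endothelial markers summed to at most 4.28 CPM in any library. The part of these shifts in the results was not tested. All libraries come from cultured lines, and bulk RNA cannot tell a change in the mix of cell states within a line from a change in every cell.

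Within each library AXL was the most abundant of the 3 receptors per length. On the scale of CPM per kb of merged exons, AXL was at 40.0 ± 1.22 (SD, n = 3) in PANC-1 FOSL1 knockdown and 50.7 ± 0.91 in PANC-1 scramble libraries, and at 113.4 ± 2.21 in H1299 HDAC2 knockdown and 125.9 ± 5.87 in H1299 scramble libraries. MERTK was at 10.4 ± 0.41 in PANC-1 FOSL1 knockdown, 13.4 ± 0.76 in PANC-1 scramble, 8.12 ± 0.43 in H1299 HDAC2 knockdown and 7.80 ± 0.25 in H1299 scramble libraries. TYRO3 was the least abundant receptor on this scale, at 2.91 ± 0.081 in PANC-1 FOSL1 knockdown, 3.45 ± 0.49 in PANC-1 scramble, 1.45 ± 0.047 in H1299 HDAC2 knockdown and 3.62 ± 0.13 in H1299 scramble libraries. AXL therefore made up 75.0 ± 0.51% of the summed receptor level per kb in PANC-1 FOSL1 knockdown and 75.1 ± 1.13% in PANC-1 scramble libraries. In H1299 it made up 92.2 ± 0.44% in HDAC2 knockdown and 91.7 ± 0.19% in scramble libraries. The share of TYRO3 was 1.18 ± 0.031% in H1299 HDAC2 knockdown and 2.64 ± 0.077% in H1299 scramble libraries, and 5.45 ± 0.27% in PANC-1 FOSL1 knockdown and 5.10 ± 0.74% in PANC-1 scramble libraries.

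The ligands were at similar levels to each other. GAS6 was at 4.66 to 5.52 and PROS1 at 6.28 to 7.72 CPM per kb of merged exons as group means. With the length of the canonical transcript in place of all merged exons, the ratio of GAS6 to PROS1 was 1.03 to 1.18 as group means, against 0.67 to 0.77 with merged exons, so which ligand was higher depends on the length used. The order of the receptors was the same with either length.

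**Figure D1:**
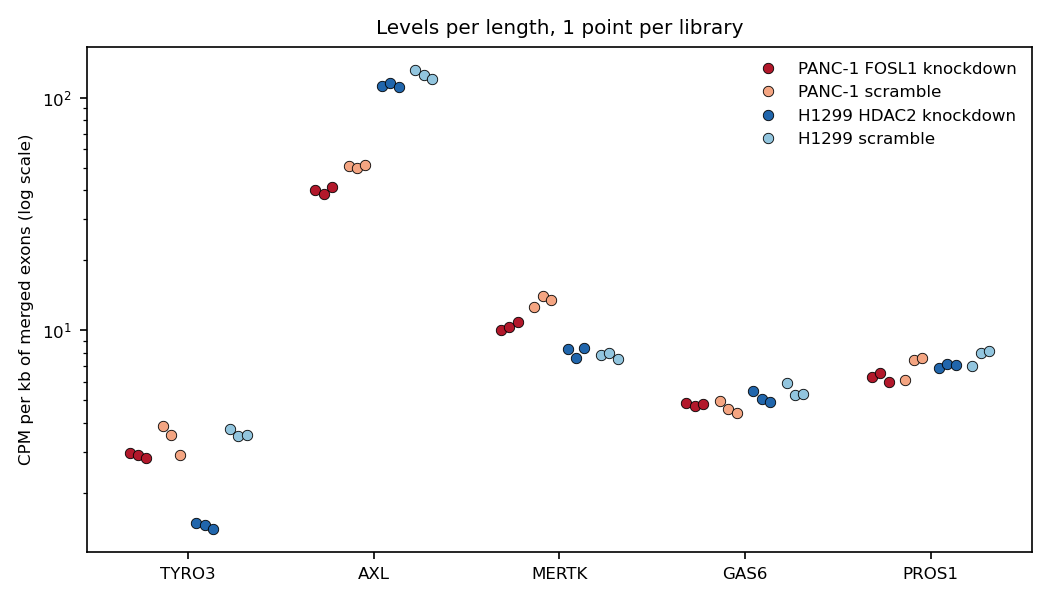
Levels of the 5 genes in CPM per kb of merged exons (vertical axis, log scale), 1 point per library, with the 4 groups in different colours. AXL lies above all other members in each group, and TYRO3 is lowest in the H1299 HDAC2 knockdown libraries, at a mean of 1.45.

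In PANC-1 cells all 3 receptors were called lower with FOSL1 knockdown and neither ligand passed the test. This split did not hold when single libraries were left out. Without scramble replicate 1, TYRO3 lost its call (adjusted p = 0.119, edgeR) and PROS1 was called lower (adjusted p = 0.00304, edgeR). TYRO3 also lost its call without scramble replicate 2 or any of the FOSL1 knockdown replicates. The share of all 16345 tested genes called at an adjusted p under 0.05 was 27.1% lower and 23.8% higher, so a lower call alone is a common result there. The count of called members was 3 of 5 lower and 0 higher, 0 higher also at an unadjusted p under 0.05 and with DESeq2 and limma-voom. The median log2 fold change was -0.36 over the receptors and -0.09 over the ligands, beside -0.02 over all genes.

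AXL, which GAS6 activates, had 206.3, 198.9 and 211.4 CPM in PANC-1 FOSL1 knockdown libraries, against 261.4, 255.2 and 264.3 CPM in scramble libraries. The groups did not overlap, which held for 57.4% of all tested genes in PANC-1, counting both directions. AXL fell by 22.3%, or by 0.36 on the log2 scale (SE 0.057, adjusted p = 9.76e-06, edgeR). When scramble replicate 1 was left out, its log2 fold change was -0.33 (adjusted p = 1.73e-08).

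MERTK, which GAS6 and PROS1 both activate, had 41.5, 42.7 and 44.9 CPM in PANC-1 FOSL1 knockdown libraries, against 52.1, 58.3 and 55.7 CPM in scramble libraries. Each knockdown library was below each scramble library, and 57.4% of all tested genes likewise had groups that did not overlap, in either direction. MERTK fell by 23.5%, or by 0.39 on the log2 scale (SE 0.077, adjusted p = 1.88e-04, edgeR), and its log2 fold change was -0.40 without scramble replicate 1 (adjusted p = 1.28e-06).

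TYRO3, likewise a receptor for both ligands, had 32.1, 31.5 and 30.3 CPM in PANC-1 FOSL1 knockdown libraries, against 41.6, 38.3 and 31.4 CPM in scramble libraries. Scramble replicate 3 lay among the knockdown libraries and scramble replicate 1 was highest. TYRO3 fell by 0.27 on the log2 scale (SE 0.096, adjusted p = 0.0217, edgeR). This call was lost when any of 5 libraries was left out, all except scramble replicate 3. The adjusted p was then 0.0534, 0.0653 and 0.0919 without FOSL1 knockdown replicates 1, 2 and 3, and 0.119 and 0.0932 without scramble replicates 1 and 2. The log2 fold change without scramble replicate 1 was -0.15.

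PROS1, an anticoagulant cofactor as well as a TAM ligand, had 33.1, 34.5 and 31.7 CPM in PANC-1 FOSL1 knockdown libraries, against 32.2, 39.4 and 40.1 CPM in scramble libraries. Scramble replicate 1 lay among the knockdown libraries. The log2 fold change was -0.19 (SE 0.092, adjusted p = 0.0829, edgeR) with all libraries and -0.26 without scramble replicate 1, which then passed the test (adjusted p = 0.00304). Upper quartile scaling also gave a call, at -0.22 (adjusted p = 0.0475).

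GAS6, a ligand of all 3 receptors, had 29.3, 28.4 and 29.0 CPM in PANC-1 FOSL1 knockdown libraries, against 29.9, 27.7 and 26.5 CPM in scramble libraries. The groups overlapped and the log2 fold change was 0.02 (95% interval -0.16 to 0.20, adjusted p = 0.87, edgeR). Among its exon bases, 7% are shared with the antisense lncRNA GAS6-AS1, and the strand setting of the counting is not given in the sources used here. GAS6-AS1 itself had 24 to 52 counts in FOSL1 knockdown and 47 to 58 counts in scramble libraries, against 483 to 515 and 509 to 557 counts of GAS6.

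**Figure D2:**
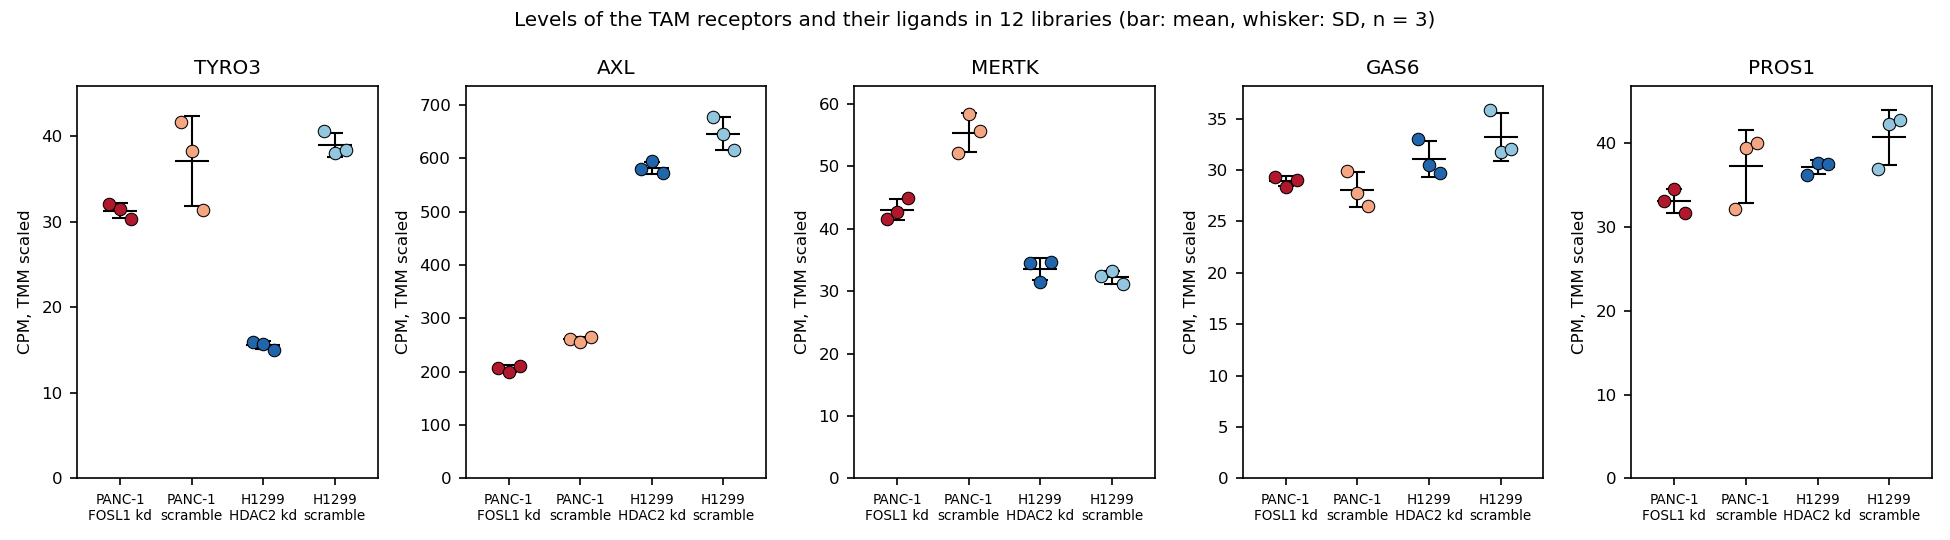
Levels of each member in CPM (vertical axes, TMM scaled, starting at 0) in the 12 libraries by group, with the knockdown left of the scramble of its line. Points are libraries, the wide bar the mean and the whiskers the SD. TYRO3 is at 15 to 16 CPM in H1299 HDAC2 knockdown libraries. AXL and MERTK do not overlap between the PANC-1 groups, as was so for 57.4% of all tested genes.

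In H1299 cells the largest difference among the members was that of TYRO3, by which the set was selected. TYRO3 had 16, 15.7 and 15 CPM (268, 269 and 286 counts) in HDAC2 knockdown libraries, against 40.6, 38.0 and 38.4 CPM (744, 675 and 761 counts) in scramble libraries. The knockdown libraries agreed within 1 CPM and lay far below the scramble libraries. The log2 fold change was -1.33 (SE 0.085), a level 2.51-fold lower with HDAC2 knockdown, and was -1.30 without scramble replicate 1. Of the 16465 tested genes, 95 had a lower log2 fold change. The processed pseudogene TYRO3P had 0 to 1 counts in HDAC2 knockdown and 1 to 2 counts in scramble libraries of H1299, and adding its reads to TYRO3 moved the log2 fold change of TYRO3 by less than 0.01.

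AXL had 579.1, 595.0 and 573.0 CPM in H1299 HDAC2 knockdown libraries, against 676.4, 645.9 and 616.1 CPM in scramble libraries. Each knockdown library lay below each scramble library (log2 fold change -0.15, SE 0.055). Groups that did not overlap, in either direction, were found for 37.1% of all tested genes in H1299. AXL thus differed much less than TYRO3 on the log2 scale, although the gap in CPM was larger.

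MERTK had 34.5, 31.5 and 34.7 CPM in H1299 HDAC2 knockdown libraries, against 32.5, 33.2 and 31.1 CPM in scramble libraries. The ranges overlapped (log2 fold change 0.06, SE 0.079).

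GAS6 had 33.0, 30.5 and 29.7 CPM in H1299 HDAC2 knockdown libraries, against 35.9, 31.7 and 32.0 CPM in scramble libraries. The ranges overlapped (log2 fold change -0.10, SE 0.082), with scramble replicate 1 the highest of the 6 libraries. PROS1 had 36.2, 37.7 and 37.5 CPM in HDAC2 knockdown libraries, against 36.9, 42.4 and 42.8 CPM in scramble libraries. Here scramble replicate 1 lay among the knockdown libraries (log2 fold change -0.14, SE 0.079). Without scramble replicate 1 the log2 fold changes were -0.04 for GAS6 and -0.20 for PROS1.

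Of all tested genes in this comparison, 12.1% were called lower and 10.3% higher. The selection used it, so no call is given for the members. The knockdowns differ in target and in cell line, so the PANC-1 and H1299 values stand side by side and their difference was not tested.

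**Figure D3:**
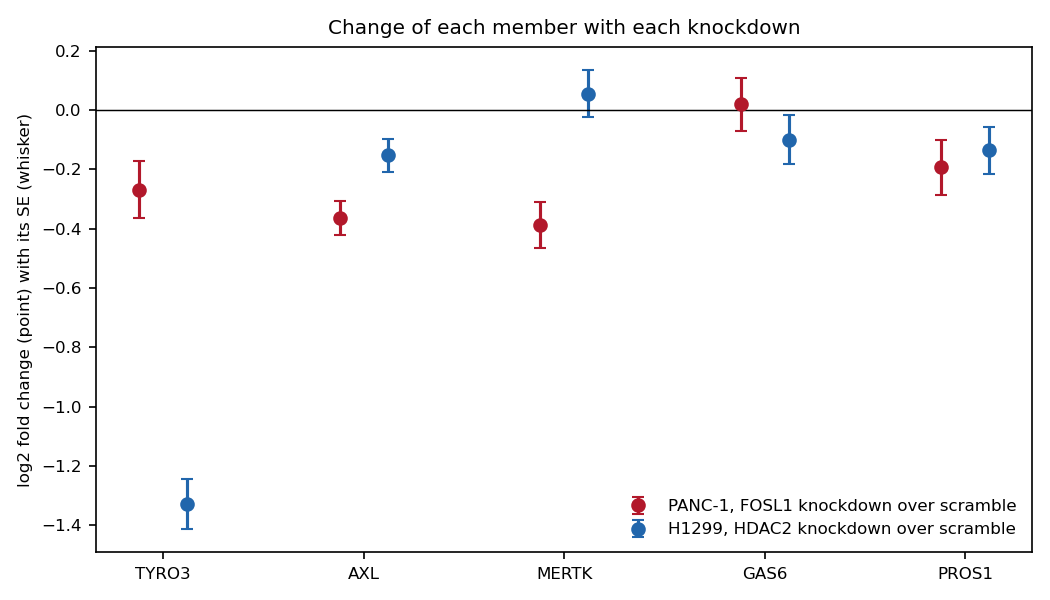
Log2 fold change of each member (vertical axis, points) with its SE (whiskers), for FOSL1 knockdown over scramble in PANC-1 (red) and HDAC2 knockdown over scramble in H1299 (blue). TYRO3 is at -1.33 in H1299 and -0.27 in PANC-1, and the other 4 members lie between -0.39 and 0.06.

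Across the 4 groups each member had its own order of levels. TYRO3 was highest in H1299 scramble (38.0 to 40.6 CPM), followed by PANC-1 scramble (31.4 to 41.6), PANC-1 FOSL1 knockdown (30.3 to 32.1) and H1299 HDAC2 knockdown (15 to 16), and only the last did not overlap its neighbour in this order. AXL was ordered H1299 scramble, H1299 HDAC2 knockdown, PANC-1 scramble and PANC-1 FOSL1 knockdown, and no neighbours overlapped. MERTK was highest in PANC-1 scramble and then PANC-1 FOSL1 knockdown, above both H1299 groups, which overlapped each other. GAS6 was highest in H1299 scramble (31.7 to 35.9 CPM) and H1299 HDAC2 knockdown (29.7 to 33.0), which overlapped, followed by PANC-1 FOSL1 knockdown (28.4 to 29.3) and PANC-1 scramble (26.5 to 29.9), which also overlapped. The lowest H1299 HDAC2 knockdown library, at 29.7 CPM, lay below the highest PANC-1 scramble library, at 29.9 CPM, so these groups overlapped as well. PROS1 was lowest in PANC-1 FOSL1 knockdown (31.7 to 34.5 CPM), which overlapped PANC-1 scramble (32.2 to 40.1) and did not overlap H1299 HDAC2 knockdown (36.2 to 37.7), and the 3 higher groups overlapped each other.

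Between the scramble cells of the lines, 37.4% of 17619 tested genes were higher in PANC-1 and 39.5% were lower, so most genes differed. Of the 4 members that were tested, 1 was higher in PANC-1 scramble, 2 were lower and 1 did not pass. MERTK was at 55.4 ± 3.14 CPM in PANC-1 scramble and 32.3 ± 1.05 CPM in H1299 scramble libraries, with a log2 fold change of 0.77 (SE 0.088, adjusted p = 9.94e-08, edgeR). AXL was at 260.3 ± 4.66 CPM in PANC-1 scramble and 646.1 ± 30.1 CPM in H1299 scramble libraries, 2.50-fold lower in PANC-1 (log2 fold change -1.32, SE 0.071, adjusted p = 7.64e-13, edgeR). GAS6 was at 28.0 ± 1.70 CPM in PANC-1 scramble and 33.2 ± 2.32 CPM in H1299 scramble libraries (log2 fold change -0.25, adjusted p = 0.0239, edgeR). The GAS6 call was lost without H1299 scramble replicate 1 (adjusted p = 0.0892) and without PANC-1 scramble replicate 2 or 3 (adjusted p = 0.0851 and 0.113). PROS1 did not pass, at 37.2 ± 4.38 CPM in PANC-1 scramble and 40.7 ± 3.29 CPM in H1299 scramble libraries (log2 fold change -0.14, 95% interval -0.35 to 0.07, adjusted p = 0.223, edgeR). TYRO3, given as a description, was at 37.1 ± 5.24 CPM in PANC-1 scramble and 39.0 ± 1.40 CPM in H1299 scramble libraries. The line and any batch of libraries cannot be told apart.

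Among other receptor tyrosine kinases, lower calls were more common than higher calls in both knockdowns, as they were over all tested genes. Over all tested genes 27.1% were lower and 23.8% higher in PANC-1, and 12.1% lower and 10.3% higher in H1299. In PANC-1, 20 of 35 tested were lower with FOSL1 knockdown and 5 were higher, with a median log2 fold change of -0.30. EPHB6, a kinase-dead Eph receptor, was at 1.5 CPM in FOSL1 knockdown and 9.84 CPM in scramble libraries (log2 fold change -2.74), and INSR, the insulin receptor, was at 4.14 CPM in FOSL1 knockdown and 13.7 CPM in scramble libraries (-1.75). RET, a receptor for the GDNF family, rose by 0.62 and MST1R, the receptor of macrophage-stimulating protein, by 0.55 on the log2 scale. In H1299, 14 of 35 were lower with HDAC2 knockdown and 0 were higher by edgeR, with 1 higher at an unadjusted p under 0.05, and DESeq2 and limma-voom called 11 and 14 lower and 0 higher. The median log2 fold change was -0.23. ERBB3, a partner of ERBB2, was at 6.49 CPM in HDAC2 knockdown and 10.4 CPM in scramble libraries (log2 fold change -0.68, adjusted p = 7.47e-04, edgeR), and PTK7, a kinase-dead receptor of Wnt signalling, at 20.1 CPM in HDAC2 knockdown and 29.3 CPM in scramble libraries (-0.54, adjusted p = 3.28e-05).

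The set was chosen by the low TYRO3 value in H1299, so the rank of TYRO3 there is a description only. TYRO3 was the third lowest of 38 receptor kinases in H1299 with HDAC2 knockdown, counting the TAM receptors. The 2 below it, TIE1 and PDGFRB, were singled out after their values were seen and were scarce, with TIE1 at 0.7 CPM in HDAC2 knockdown and 2.2 CPM in scramble libraries. In PANC-1 with FOSL1 knockdown MERTK was 16th, AXL 17th and TYRO3 23rd from the lowest of 38.

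**Figure D4:**
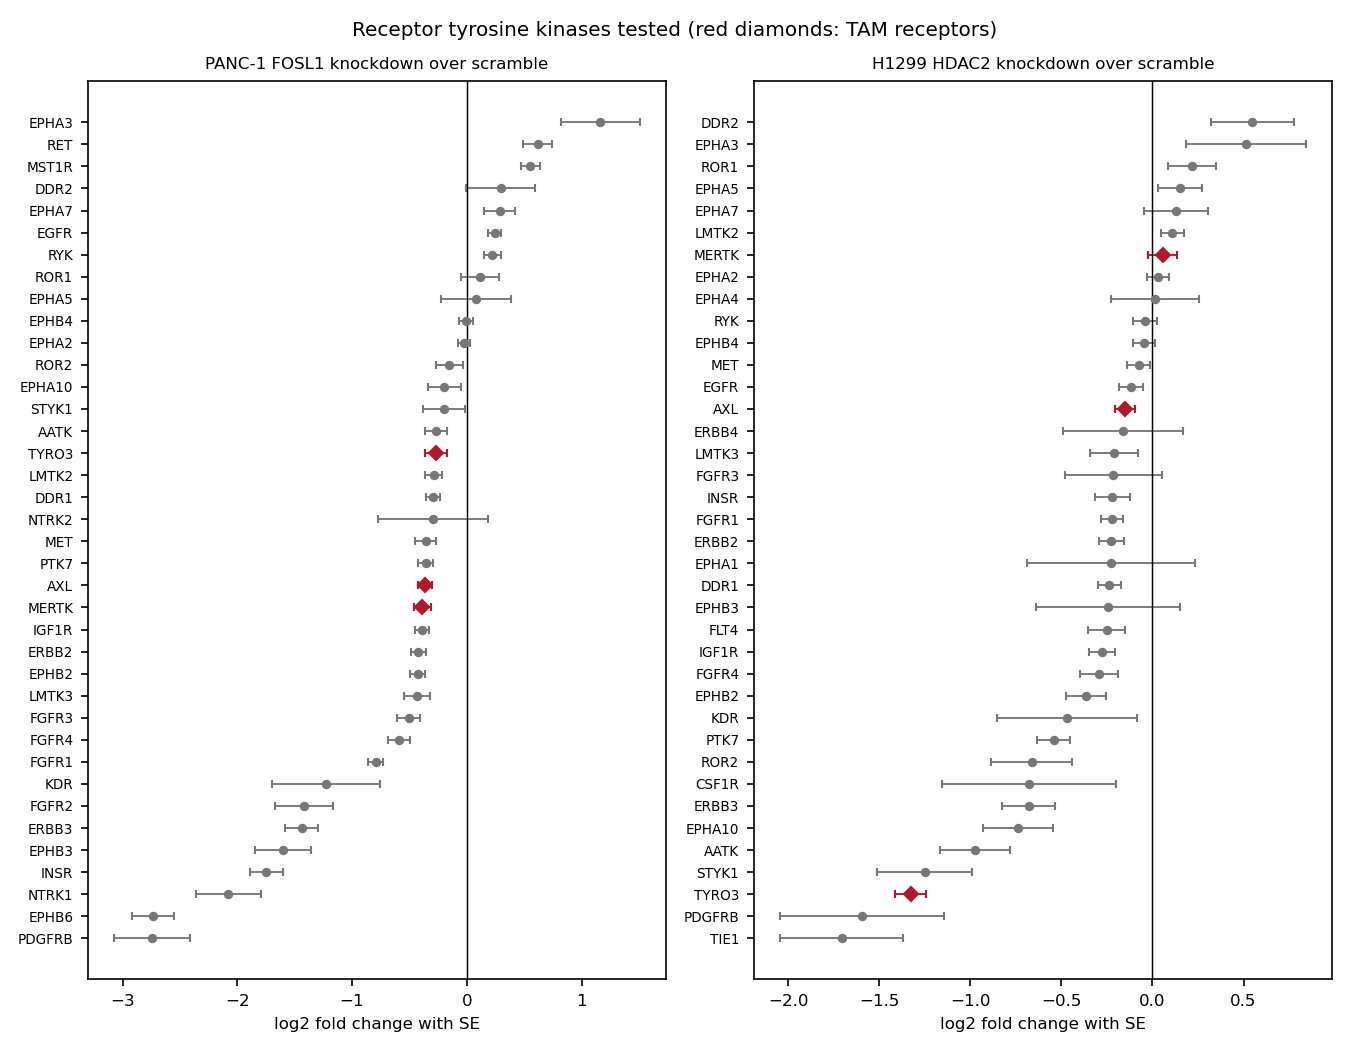
Log2 fold change (horizontal axis) with its SE for each receptor tyrosine kinase that was tested, in PANC-1 with FOSL1 knockdown (left) and H1299 with HDAC2 knockdown (right), ordered by value, with the TAM receptors as red diamonds. TYRO3, whose low value in H1299 chose the set, is the third lowest there at -1.33. In PANC-1 the TAM receptors lie in the middle of the 38 kinases, at -0.27 to -0.39.

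LGALS3 (galectin-3, reported as a MERTK ligand) rose with FOSL1 knockdown in PANC-1, with 145.3 CPM in knockdown and 95.9 CPM in scramble libraries (log2 fold change 0.58, adjusted p = 3.67e-08, edgeR). It was lower with HDAC2 knockdown in H1299, with 12 CPM in knockdown and 15.8 CPM in scramble libraries (-0.40, adjusted p = 0.00579). TUB, the other reported ligand that was tested, fell by 1.47 in PANC-1 and had a log2 fold change of -0.46 in H1299 that did not pass (adjusted p = 0.13).

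Of 7 genes of gamma-carboxylation and the vitamin K cycle, 2 rose and 2 fell in PANC-1, and 2 rose and 1 fell in H1299. The shares over all tested genes were 23.8% higher and 27.1% lower in PANC-1, and 10.3% higher and 12.1% lower in H1299. GGCX, the carboxylase that modifies the Gla domain, was lower in both. It was at 50.2 ± 2.3 CPM in PANC-1 FOSL1 knockdown and 57.1 ± 0.55 CPM in scramble libraries (log2 fold change -0.21, adjusted p = 0.0204, edgeR). In H1299 it was at 50.2 ± 1.5 CPM in HDAC2 knockdown and 58.0 ± 2.6 CPM in scramble libraries (-0.21, adjusted p = 0.025). NQO1, a quinone reductase, rose by 0.18 in PANC-1 and by 0.34 in H1299. CALU, an inhibitor of the carboxylase, had a log2 fold change of -0.28 in PANC-1 and 0.22 in H1299.

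Among 12 other vitamin K-dependent proteins, which carry a Gla domain as the ligands do, 2 of 4 tested fell in PANC-1 and 1 of 5 rose in H1299. Beside these counts, 27.1% of all tested genes were lower in PANC-1 and 10.3% were higher in H1299. PRRG1, a transmembrane Gla protein, had 14.0 CPM in PANC-1 FOSL1 knockdown and 20.6 CPM in scramble libraries (log2 fold change -0.58, adjusted p = 2.25e-04, edgeR). The coagulation factor gene F10 fell by 1.19 in PANC-1 and the matrix Gla protein gene MGP rose by 1.30 in H1299, both under 5 CPM. Both are outside the rule for named genes, and DESeq2 called 1 of the list lower in PANC-1, not 2.

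Of 13 tested flippases and scramblases, which keep phosphatidylserine inside or bring it to the surface, 1 rose and 2 fell in PANC-1. The background was 23.8% higher and 27.1% lower in PANC-1, and 10.3% higher and 12.1% lower in H1299. The scramblase ANO6 fell by 0.47 and TMEM30A, the flippase subunit, by 0.32, and the flippase ATP11A rose by 0.33. In H1299 ATP11A was the only one called by edgeR (log2 fold change -0.26), with 1 higher and 5 lower at an unadjusted p under 0.05.

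A list joined the sheddases that cut AXL and MERTK from the surface with their regulators and inhibitors. Of 6 tested in PANC-1, 4 were lower and 1 higher, beside 27.1% lower and 23.8% higher over all tested genes. Inhibitors act against the proteases, so this count gives no direction for shedding. TIMP2, a metalloprotease inhibitor, fell by 0.67 and RHBDF1 (iRhom1, which carries ADAM17 to the surface) by 0.50, and RHBDF2 rose by 0.22. In H1299, 1 rose and 2 fell, beside 10.3% higher and 12.1% lower over all tested genes. The sheddase ADAM10 had 139.9 CPM in HDAC2 knockdown and 116.6 CPM in scramble libraries (log2 fold change 0.26, adjusted p = 0.00364, edgeR), while RHBDF2 fell by 0.27 and the inhibitor TIMP1 by 0.26.

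Of the signalling adaptors and effectors downstream of TAM receptors, 9 of 25 tested rose and 9 fell in PANC-1. There 23.8% of all tested genes were higher and 27.1% lower. SOCS3, a feedback inhibitor of cytokine signalling, had 40.4 CPM in FOSL1 knockdown and 89.7 CPM in scramble libraries (log2 fold change -1.17, adjusted p = 9.12e-12, edgeR). The adaptor BCAR1 rose by 0.48 and the kinase AKT1 by 0.43. In H1299, 1 of 27 rose and 7 fell with HDAC2 knockdown, beside 10.3% higher and 12.1% lower over all tested genes. The adaptor NCK2 fell by 0.33 (adjusted p = 0.00611, edgeR). The PI3-kinase subunit PIK3R1 rose by 0.24, near the threshold (adjusted p = 0.0477, edgeR), and DESeq2 called 0 of the list higher.

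Of other phosphatidylserine receptors and bridging molecules, 3 of 10 rose and 4 fell in PANC-1, and 2 of 11 rose and 6 fell in H1299. All tested genes gave 23.8% higher and 27.1% lower in PANC-1, and 10.3% higher and 12.1% lower in H1299. MFGE8, which bridges phosphatidylserine to integrins, had 319.2 CPM in PANC-1 FOSL1 knockdown and 684.9 CPM in scramble libraries (log2 fold change -1.12, adjusted p = 2.04e-13, edgeR). ADGRB1 (BAI1, a phosphatidylserine receptor) fell by 0.96 in PANC-1 and by 0.97 in H1299, and the integrin ITGB3 fell by 0.56 in H1299 and rose by 1.34 in PANC-1. The scavenger receptor SCARB1 rose by 0.16 in PANC-1 and the engulfment adaptor GULP1 by 0.25 in H1299, while GULP1 fell by 0.52 in PANC-1. DNAJC13, an endosomal protein that is no phosphatidylserine receptor, counts among the genes that rose in both (0.28 in PANC-1 and 0.25 in H1299).

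**Figure D5:**
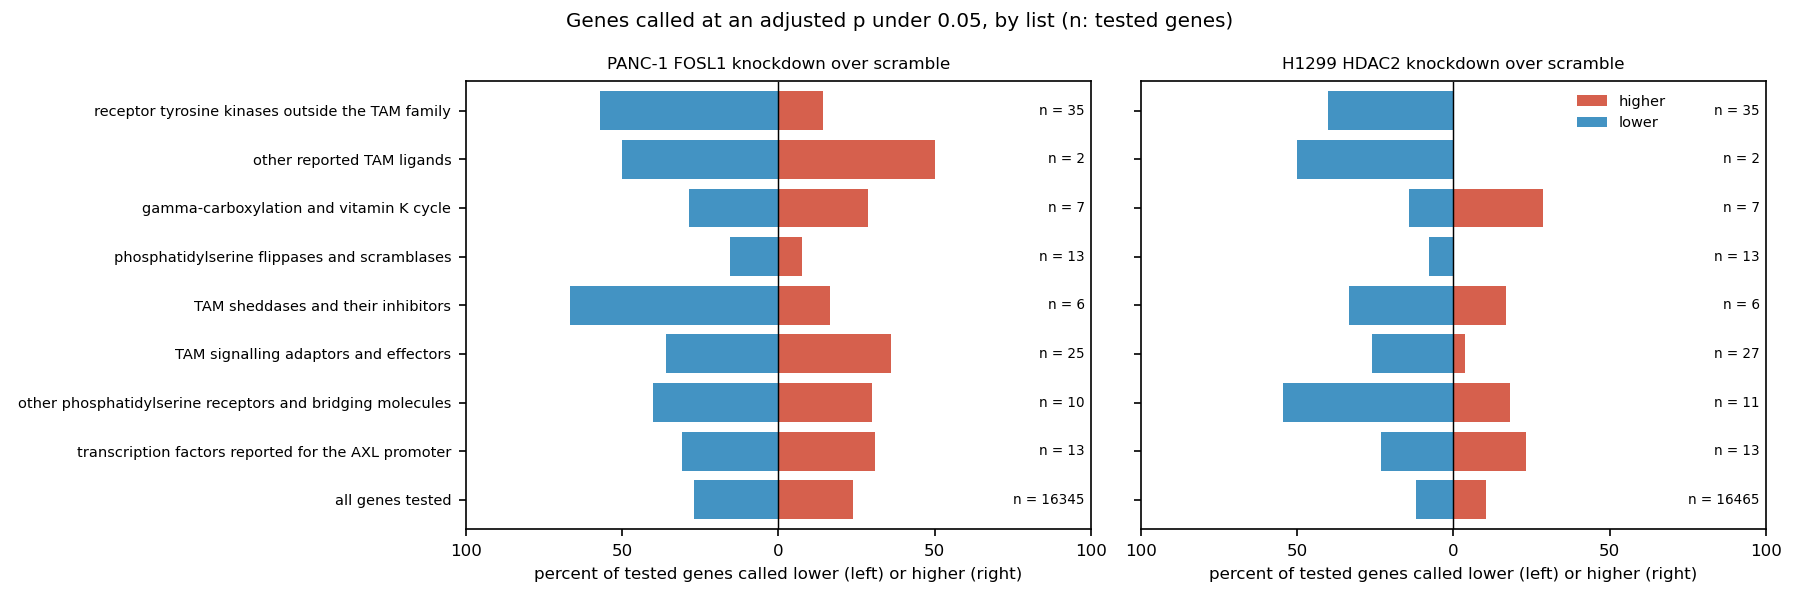
Percent of the tested genes of each list called lower (left of 0) or higher (right of 0) at an adjusted p under 0.05 in PANC-1 with FOSL1 knockdown (left panel) and H1299 with HDAC2 knockdown (right panel), with all tested genes as the last row. The number of tested genes stands at the right of each row, and the background is 27.1% lower and 23.8% higher in PANC-1 and 12.1% lower and 10.3% higher in H1299.

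Of 13 transcription factors reported for the AXL promoter, FOSL1 itself included, 4 rose and 4 fell in PANC-1, and 3 rose and 3 fell in H1299. For all tested genes the shares were 23.8% higher and 27.1% lower in PANC-1, and 10.3% higher and 12.1% lower in H1299. In PANC-1 the AP-1 subunit FOS fell by 0.59 with FOSL1 knockdown, and TEAD2 and TEAD4, DNA-binding partners of YAP1, rose by 0.57 and 0.45. In H1299 FOSL1 rose with HDAC2 knockdown, to 590.5 ± 26.0 CPM against 445.6 ± 32.0 CPM in scramble libraries (log2 fold change 0.40, adjusted p = 4.41e-06, edgeR). There FOS rose by 0.50, and the coactivator YAP1 fell by 0.50 and TEAD2 by 0.27. Of the 4 class I histone deacetylases, HDAC1, the closest relative of HDAC2, rose by 0.17 in H1299 with HDAC2 knockdown (adjusted p = 0.0286, edgeR) and HDAC3 and HDAC8 did not pass, while in PANC-1 HDAC8 fell by 0.37 and the other 3 did not pass.

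The genes next to TYRO3 did not share its low value in H1299. RPAP1, 13406 bp to its left, had a log2 fold change of 0.17 with HDAC2 knockdown, MGA, 37545 bp to its right, of 0.12, and MAPKBP1, beyond MGA, of 0.19, and none passed (adjusted p = 0.0871, 0.252 and 0.0764, edgeR). LTK, another receptor tyrosine kinase beyond RPAP1, was too low to test. In PANC-1 MGA rose by 0.41 and MAPKBP1 by 0.43 with FOSL1 knockdown, while RPAP1 did not pass (-0.05, adjusted p = 0.619).

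Next to AXL, HNRNPUL1, which starts 730 bp after the end of AXL, had 908.3 CPM in H1299 HDAC2 knockdown and 1042 CPM in scramble libraries (log2 fold change -0.20, adjusted p = 0.00775, edgeR), and did not pass in PANC-1 (0.10, adjusted p = 0.17). TGFB1, the cytokine gene that follows, fell by 0.54 in H1299 and by 0.21 in PANC-1. CYP2S1, to the left, did not pass in PANC-1 (0.18, adjusted p = 0.127), and CYP2F1 was too low to test.

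Next to MERTK, ANAPC1, a subunit of the anaphase-promoting complex, fell by 0.36 and TMEM87B rose by 0.25 in PANC-1, and in H1299 TMEM87B fell by 0.22 and ANAPC1 did not pass (-0.08). FBLN7, beyond TMEM87B, fell by 2.05 in PANC-1 at a low level (0.31 CPM in FOSL1 knockdown and 1.29 CPM in scramble libraries), and BCL2L11 passed in neither line. Of the genes around GAS6, RASA3 rose by 0.41 in PANC-1 and fell by 0.49 in H1299, C13orf46 rose by 0.96 in PANC-1, and TMEM255B passed in neither. Beside PROS1, EPHA3, 4390917 bp to its left and scarce, rose by 1.16 in PANC-1 and did not pass in H1299 (0.51).

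The genes most like each member were taken as those with the highest Pearson r of log2 CPM over the 12 libraries, each line centred on its own mean, among 10263 genes. The libraries of a group share their treatment and line, and r is a description. For TYRO3 the H1299 values that chose the set enter r, so the genes found are no independent support. For TYRO3 they were SDC3, a cell-surface proteoglycan (0.992), and ISG15, an interferon-induced ubiquitin-like protein (0.983), among others. Their log2 fold changes in H1299 with HDAC2 knockdown were -0.99 for SDC3 and -1.37 for ISG15, and in PANC-1 with FOSL1 knockdown -0.22 for SDC3 and -0.18 for ISG15. For AXL they were DOC2A (0.98), EPN2 (0.976) and VGF (0.975), and for MERTK MAPRE2 (0.977), IVNS1ABP (0.973) and IGFBPL1 (0.967). For GAS6 they were UNC45A (0.959), KLC4 (0.91) and AKT2 (0.901), and for PROS1 PHF20 (0.971), DSG2 (0.938) and LRBA (0.936).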

How the data were processed

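RNA-seq of 12 libraries was analysed, with groups and replicate numbers from the sample labels. The authors trimmed reads with cutadapt, aligned them to GRCh38 with STAR 2.7.2b and assigned them to genes with featureCounts 2.0.1, and what they deposited is a table of raw counts for 60668 genes. The release of the annotation, the strand setting and the treatment of reads with several matches are not given in the sources used here. Genes were kept by filterByExpr, libraries were scaled by TMM, and groups of 3 were compared with the quasi-likelihood test of edgeR 4.0.16 in R 4.3.3, with group as the only factor and Benjamini-Hochberg adjustment over 16345 genes in PANC-1, 16465 in H1299 and 17619 between the lines. A call is an adjusted p under 0.05. The smallest exact permutation p for 3 libraries against 3 is 0.1, so the model across all genes was used. The biological coefficient of variation was 0.0687 in PANC-1, 0.0609 in H1299 and 0.0818 between the lines. The script was tested on simulated data.

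The members and the lists (18 lists, 6 of them of cell type markers) were chosen with earlier results of these data known, so no count within a list is independent support. Named genes are the 5 members, both targeted genes, for each list and knockdown up to 2 called genes in each direction with the largest change, whose mean reached 5 CPM and whose groups did not overlap, the 2 nearest protein-coding genes on each side of a member, its pseudogenes and antisense genes, and the 3 genes most like it. Levels per length used GENCODE 44 exons, and 60340 of the gene identifiers of the table are in that release. Promoter windows were taken from RefSeq, and the FOSL1 shRNA target from the supplement of the study.

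The alternatives were DESeq2 1.42.0, limma-voom (limma 3.58.1), scaling by RLE or by the upper quartile, keeping each gene with 1 count or only those with 10 in every library, 1 fit over all 12 libraries, removal of mitochondrially encoded genes together with the 20 most abundant, adding pseudogene reads to TYRO3 and PROS1, a further threshold of 0.5 on the absolute log2 fold change, the replicate block, and leaving out each library in turn. Reads shared with paralogs were not reassigned. Some genes that the rule names are not reported here.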

Additional observations from a re-analysis of the deposited data

How the results depend on the processing

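With DESeq2, limma-voom, RLE scaling, either other filter on low counts, 1 fit over 12 libraries, removal of abundant genes or added pseudogene reads, 3 members were called in PANC-1 with FOSL1 knockdown, and with upper quartile scaling 4. With a further threshold of 0.5 on the absolute log2 fold change the number was 0, since no member changed by that much there, and leaving out 1 library gave 2 to 3. AXL (-0.39 to -0.33) and MERTK (-0.41 to -0.33) were called lower in each of 16 alternatives without that threshold. The log2 fold change of TYRO3 was -0.36 to -0.15 and that of PROS1 -0.26 to -0.12 when 1 library was left out. GAS6, never called, had a log2 fold change of -0.003757 with upper quartile scaling, and of -0.004766 to 0.09577 when 1 library was left out.

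In H1299 with HDAC2 knockdown, the comparison by which the members were chosen, a count of members past the threshold is no test of them and nothing is read from it. It was 2 in the fit of the report, 1 with RLE scaling, with no filter beyond 1 count and with the fold threshold, and 1 to 3 when 1 library was left out (1 without any of the HDAC2 knockdown replicates or scramble replicate 2, and 3 without scramble replicate 1). The log2 fold change of TYRO3 was -1.35 to -1.30 in all 16 alternatives. Between the lines 2 to 3 members were called.

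Replicate numbers gave no pairing: the deviations from the group means of same-numbered libraries had correlations of 0.011, -0.0051 and -0.013 in PANC-1 and -0.018, -0.059 and 0.044 in H1299. With the replicate block 3 members were called in PANC-1. In H1299, whose comparison chose the members, 1 was past the threshold with the block, and nothing is read from that count.

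The fold threshold left 4326 of 8312 called genes in PANC-1 and 1162 of 3695 in H1299, and 11 of 20 and 8 of 14 lower receptor kinases in the same order. Without HDAC2 knockdown replicate 3, 2376 genes were called in H1299. With at least 10 counts in every library, 5 in place of 10 receptor kinases were lower in PANC-1 scramble than in H1299 scramble cells. The causes were not tested.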
